A study of Rattus norvegicus with 9 samples.

Results

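Adrenergic and muscarinic receptor signalling in the rat right ventricle was described through 9 genes, namely the receptors Adrb1, Adra1a, Adra1b, Adra1d and Chrm2, the receptor kinase Grk5, the G protein regulator Rgs2 and the adenylyl cyclases Adcy5 and Adcy6. The members were taken by name. All 9 had a feature annotated with exactly 1 of these symbols, out of 29215 features on the array, 15310 of which carried 1 symbol. Each gene had 1 such feature, so no choice between features was needed. The arrays held RNA from right ventricles of male Sprague-Dawley (SD) rats, 3 arrays in each of 3 groups. In the F+ group the pulmonary artery had been banded (PAB), and weeks later the fibrotic area of the heart was above a limit set by the study. In the F- group the artery had been banded in the same way and the fibrotic area was below that limit, so the banded hearts were sorted by an outcome and not by a treatment. The sham-operated (sham) group had no banding. Neither the age of the rats nor the number of animals behind each array was given in the sources used here, so the p-values reflect array-to-array spread that may be only technical.

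Noradrenaline and adrenaline act on the heart through beta and alpha-1 adrenergic receptors. The beta-1 receptor couples to the G protein Gs, which stimulates adenylyl cyclase, and the cyclic AMP formed activates protein kinase A. Alpha-1 receptors couple to Gq and phospholipase C. Acetylcholine from the vagus nerve acts on the M2 muscarinic receptor, which couples to Gi, inhibits adenylyl cyclase and opens a potassium channel. Receptor kinases and RGS proteins limit these signals, the kinases by phosphorylating active receptors and the RGS proteins by speeding the return of G proteins to their inactive state.

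The deposited values lay between 1 and 190.4, and the medians of the arrays lay between 33.4 and 33.9. The scale of the values was not given in the sources used here. A log2 difference below is the mean log2 deposited value of the first group minus that of the second, and it would be larger in size were the deposited scale a square of log2 signals. Adjusted and unadjusted p-values and standard errors came from limma, with Benjamini-Hochberg adjustment across the 29215 features. Permutation tests are named where they were used, and each is for 1 gene alone with no adjustment over genes. Markers of ventricular cardiomyocytes were present on every array, with a summed value of 1465 to 1486 for 10 genes in F+ ventricles, 1484 to 1498 in F- ventricles and 1461 to 1491 in sham ventricles. Several arrays stood apart from the rest of their groups. On sham array 2 the atrial genes Bmp10 (85.8) and Sln (115.1) were far above the other 8 arrays (15.5 to 18.9 and 38 to 53.8). On F- array 1 the summed value of 8 macrophage genes was 559.4, against 446.2 and 452.5 on the other F- arrays. On sham array 1 the summed value of 12 genes listed for the cyclic AMP response, immediate early genes among them, was 883.5, against 690 to 732.9 on the other 8 arrays. Values without these arrays are given beside the members they moved most.

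**Figure D1:**
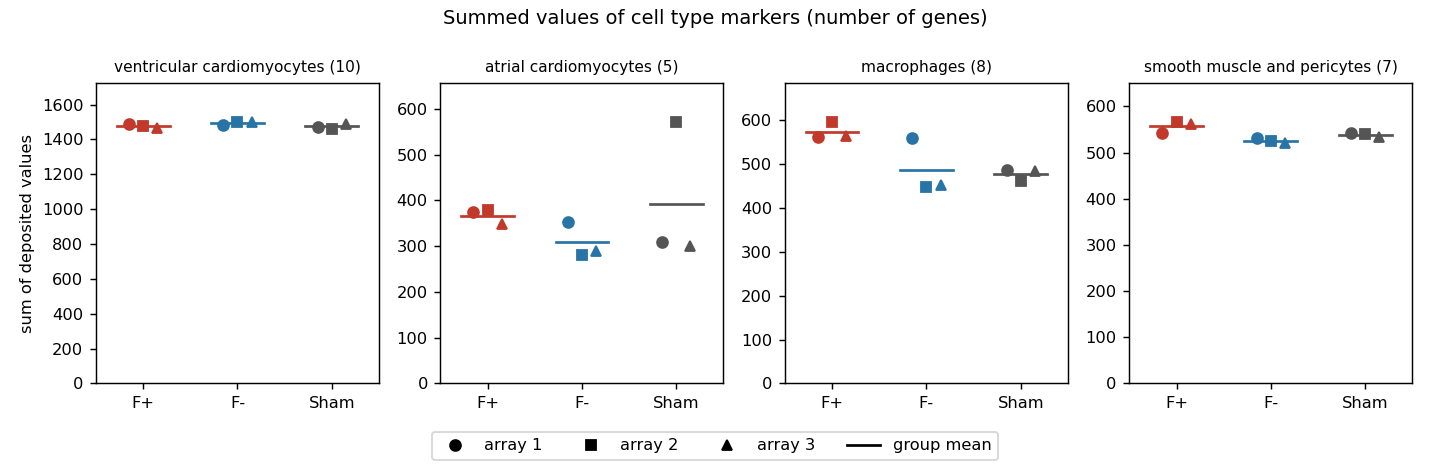
Summed deposited values (vertical axis, from 0) of the markers of ventricular cardiomyocytes, atrial cardiomyocytes, macrophages, and smooth muscle and pericytes on each array of the F+, F- and sham groups, with the group mean as a line. Sham array 2 lies apart for the atrial markers at 570.5, and F- array 1 lies near the F+ arrays for the macrophage markers at 559.4.

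Grk5 mRNA gave its 3 highest signals on the 3 F+ arrays. Grk5 encodes G protein-coupled receptor kinase 5, which phosphorylates agonist-occupied receptors, among them the beta-1 receptor, and so uncouples them from their G proteins. Its deposited values were 68.1, 71 and 67 in F+ ventricles, 63, 57 and 56.5 in F- ventricles and 62.7, 60.4 and 59.9 in sham ventricles. The F- and sham arrays overlapped, and F- array 1 was the highest of these 6. Over all features, 1.7% had every F+ value above all 6 other arrays, and Grk5 was the only 1 of the 9 members to do so. No member had every F+ value below the 6, as 1.84% of all features did.

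Grk5 differed between F+ and F- by a log2 value of 0.23 (standard error 0.047, 95% confidence interval 0.12 to 0.33), an increase of 16.9% on the deposited scale. On a scale of squared log2 signals it would be 1.54-fold. The unadjusted p was 0.00156, smaller than for all but 94 of the 29215 features, and the adjusted p of 0.481 did not pass. Against the sham group the log2 difference of the F+ group was 0.17 (standard error 0.047, 95% confidence interval 0.062 to 0.28), with an adjusted p of 0.604. That of the F- group was -0.054 (95% confidence interval -0.16 to 0.056, adjusted p = 0.779), and -0.10 without F- array 1 (unadjusted p = 0.0230). The exact permutation test over the 3 groups gave p = 0.0143 for Grk5 alone, not adjusted over genes, and between any 2 groups of 3 the exact two-sided test cannot go below 0.1. Without F- array 1 the log2 difference between F+ and F- was 0.28, and it lay between 0.20 and 0.28 over all arrays left out in turn.

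Markers of several other cell types, but not of all, differed between F+ and F- ventricles in the same direction as Grk5. Of the 10 ventricular cardiomyocyte genes 2 were higher in F+ than in F- ventricles and 8 lower. All 8 macrophage genes had higher values in F+ ventricles than in F- ventricles, with summed values of 560.4 to 594.4 in F+ ventricles, 446.2 to 559.4 in F- ventricles and 460.6 to 486.6 in sham ventricles. All 7 genes of smooth muscle and pericytes were also higher, with sums of 543 to 565.5 in F+ ventricles, 519.8 to 532.5 in F- ventricles and 532.8 to 542.9 in sham ventricles. Of 6 endothelial genes, 4 were higher, with overlapping sums of 472.3 to 478.4 in F+ ventricles, 459.9 to 475.1 in F- ventricles and 469.5 to 478.2 in sham ventricles. The 4 measured red cell genes were all higher, with sums of 123.5 to 188.7 in F+ ventricles, 97.4 to 102 in F- ventricles and 105.4 to 115.6 in sham ventricles, and the 8 genes of neurons and Schwann cells were higher in 7 cases, with sums of 233.4 to 239.4 in F+, 226.6 to 232.3 in F- and 227.5 to 234.3 in sham ventricles. Of the 8 fibroblast genes 5 were higher, also with overlapping sums. These were 654.6 to 713.8 in F+ ventricles, 634.8 to 704.4 in F- ventricles and 628.2 to 678.1 in sham ventricles. The highest F- sum was that of F- array 1, against 656.4 and 634.8 on the other F- arrays. Of the 5 adipocyte genes 3 were higher, and their sums overlapped (174.4 to 183.8 in F+, 176.2 to 183.5 in F- and 176 to 186.2 in sham ventricles). The part of these cells in the result for Grk5 was not tested, and in bulk tissue a change in the number of cells of a type and a change in RNA per cell cannot be told apart. Grk2, the kinase first described for the beta-adrenergic receptor, was 54.5 to 59 in F+ ventricles, 55.9 to 56.6 in F- ventricles and 54.5 to 57.6 in sham ventricles. Grk6 was 47.6 to 49.5 in F+ ventricles, 47.2 to 49.4 in F- ventricles and 49.1 to 51.3 in sham ventricles, and the groups overlapped for both genes.

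The promoter windows of 7 of the 9 members were found in RefSeq (rat assembly GRCr8), each with 250 bases before and 50 bases after the start of the gene. That of Grk5 is shown because the gene had the largest difference, and those of Adrb1 and Rgs2 because only these hold a match to a motif of the cyclic AMP pathway. The cyclic AMP response element, TGACGTCA, was in none of the 7 windows and in 1.83% of all 33469 windows, searched on both strands. Its core, TGACG, which the full element contains, was in the windows of Adrb1 and Rgs2 and in 21.2% of all windows. Capitals mark the core, and in Rgs2 it lies on the other strand and reads CGTCA.
Grk5, GRCr8 chr1:270014086-270014385, plus strand: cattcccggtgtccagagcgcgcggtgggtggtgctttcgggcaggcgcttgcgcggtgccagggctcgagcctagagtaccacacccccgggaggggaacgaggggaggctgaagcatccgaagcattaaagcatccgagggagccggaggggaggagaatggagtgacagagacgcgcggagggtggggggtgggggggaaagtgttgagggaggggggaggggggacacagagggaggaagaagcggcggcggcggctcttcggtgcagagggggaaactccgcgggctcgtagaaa
Adrb1, GRCr8 chr1:265776853-265777152, plus strand: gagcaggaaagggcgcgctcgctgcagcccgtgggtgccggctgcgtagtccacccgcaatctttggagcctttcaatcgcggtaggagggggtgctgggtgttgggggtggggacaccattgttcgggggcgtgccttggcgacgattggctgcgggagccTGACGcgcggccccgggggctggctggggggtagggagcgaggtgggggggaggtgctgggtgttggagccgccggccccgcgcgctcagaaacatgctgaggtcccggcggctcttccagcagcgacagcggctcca
Rgs2, GRCr8 chr13:58352617-58352916, minus strand: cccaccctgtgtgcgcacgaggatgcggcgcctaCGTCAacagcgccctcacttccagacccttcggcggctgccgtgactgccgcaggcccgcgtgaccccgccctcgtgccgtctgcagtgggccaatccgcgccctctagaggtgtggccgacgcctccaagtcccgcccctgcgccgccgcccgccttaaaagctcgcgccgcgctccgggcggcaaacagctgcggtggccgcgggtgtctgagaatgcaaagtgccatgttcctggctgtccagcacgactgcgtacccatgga
Counted from the start of the gene, the core began at -88 in Adrb1 and at -216 in Rgs2. These matches describe the letters only, and neither gene passed the adjusted threshold in any comparison.

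**Figure D2:**
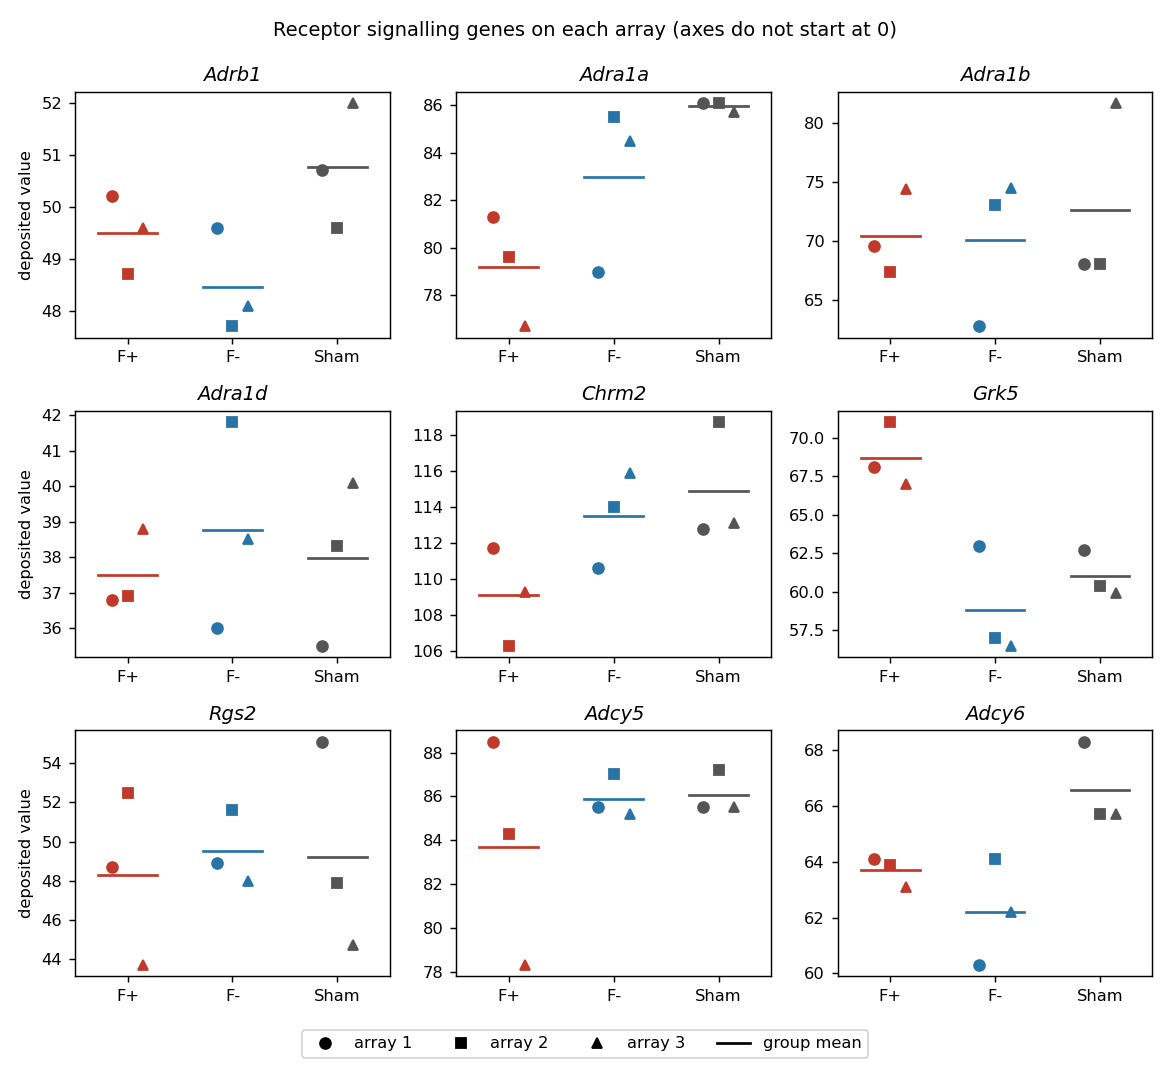
Deposited values (vertical axes, not from 0) of the 9 genes on each array of the F+, F- and sham groups, where a circle marks array 1, a square array 2, a triangle array 3 and a line the group mean. For Grk5 the F+ arrays (67 to 71) lie above all others, and for Adra1a and Adcy6 every F+ and F- array lies below every sham array.

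Of the receptors, Adra1a was lower on every banded array than on any sham array. Adra1a encodes the alpha-1A adrenergic receptor, which couples to Gq in cardiomyocytes. Its deposited values were 81.3, 79.6 and 76.7 in F+ ventricles, 79, 85.5 and 84.5 in F- ventricles and 86.1, 86.1 and 85.7 in sham ventricles. The sham arrays lay within 0.4 of each other, and the F+ and F- arrays overlapped through F- array 1. The log2 difference was -0.12 in F+ ventricles against the sham group (standard error 0.037, 95% confidence interval -0.20 to -0.033), with an unadjusted p of 0.0128 (adjusted p = 0.616). It was -0.052 in F- ventricles against the sham group (adjusted p = 0.755) and -0.067 in F+ ventricles against the F- group (adjusted p = 0.708). Without F- array 1 the difference between F+ and F- was -0.10 (unadjusted p = 0.0134). With the 6 banded arrays pooled against the sham group it was -0.085 (standard error 0.032, adjusted p = 0.726). A two-sided exact permutation of these 6 arrays against 3 gave p = 0.0476 for Adra1a alone, not adjusted over genes. The difference of the F- group against sham was -0.016 without F- array 1. On a scale of squared log2 signals the F+ level would be 0.772 of the sham level.

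The other alpha-1 receptors were not told apart between the groups. Adra1b, which encodes the alpha-1B receptor, was 69.6, 67.4 and 74.4 in F+ ventricles, 62.8, 73.1 and 74.5 in F- ventricles and 68.1, 68.1 and 81.7 in sham ventricles. The spread within each group was wider than the differences between the means, and the 95% confidence interval of the log2 difference was -0.20 to 0.22 between F+ and F- and -0.25 to 0.17 between F+ and sham. Adra1d, which encodes the alpha-1D receptor, was 36.8, 36.9 and 38.8 in F+ ventricles, 36, 41.8 and 38.5 in F- ventricles and 35.5, 38.3 and 40.1 in sham ventricles. Its intervals were -0.19 to 0.10 between F+ and F- and -0.16 to 0.13 between F+ and sham. These intervals leave room for a difference of the size found for Adra1a.

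Adrb1, which encodes the beta-1 receptor, the main beta receptor of ventricular muscle, had its lowest values in F- ventricles. The deposited values were 50.2, 48.7 and 49.6 in F+ ventricles, 49.6, 47.7 and 48.1 in F- ventricles and 50.7, 49.6 and 52 in sham ventricles. The F- and sham arrays met at 49.6, and the F+ arrays overlapped both. The log2 difference of the F- group against the sham group was -0.067 (standard error 0.029, unadjusted p = 0.0497, adjusted p = 0.743). That of the F+ group was -0.036 (95% confidence interval -0.10 to 0.030). With the 6 banded arrays pooled it was -0.052 (adjusted p = 0.726), and a two-sided exact permutation of 6 arrays against 3 gave p = 0.0595. The F+ and F- groups differed by 0.031 (95% confidence interval -0.036 to 0.097). The unadjusted p of the F- group rose above 0.05 after median centring (0.0968) and with 7 of the 9 arrays left out in turn. Without sham array 3, the highest, the pooled difference was -0.034 (unadjusted p = 0.262).

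The M2 receptor gene Chrm2, which encodes the main muscarinic receptor of the heart, was lower on every F+ array than on any sham array. The F+ arrays gave 111.7, 106.3 and 109.3, the F- arrays 110.6, 114 and 115.9 and the sham arrays 112.8, 118.7 and 113.1. The F- arrays overlapped both other groups. Between F+ and sham the log2 difference was -0.074 (standard error 0.033, unadjusted p = 0.0576, adjusted p = 0.676). Between F+ and F- it was -0.057 (adjusted p = 0.723), and between F- and sham -0.017 (adjusted p = 0.905). The highest value lay on sham array 2, where atrial genes were high, and without that array the log2 difference of the F+ group against the sham group was -0.050 (unadjusted p = 0.189). The part of the atrial genes in this difference was not tested.

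Of the adenylyl cyclases, Adcy6 was lower on every banded array than on any sham array, and Adcy5 was not told apart between the groups. Adcy5 and Adcy6 encode the main adenylyl cyclases of cardiac muscle, both of which Gs stimulates and Gi inhibits. For Adcy6 the values were 64.1, 63.9 and 63.1 in F+ ventricles, 60.3, 64.1 and 62.2 in F- ventricles and 68.3, 65.7 and 65.7 in sham ventricles. With the 6 banded arrays pooled against the sham group the log2 difference was -0.081 (standard error 0.026, 95% confidence interval -0.14 to -0.019), with an unadjusted p of 0.0164 (adjusted p = 0.726). A two-sided exact permutation of 6 arrays against 3 gave p = 0.0119 for Adcy6 alone, not adjusted over genes. That is the smallest p that such a permutation can give. The log2 difference was -0.098 in F- ventricles (adjusted p = 0.743) and -0.063 in F+ ventricles (adjusted p = 0.690) against the sham group. The F+ and F- groups differed by 0.035 (95% confidence interval -0.036 to 0.11). Without sham array 1, the highest for Adcy6, the difference of the banded groups was -0.062 (unadjusted p = 0.0689). That array also held the highest sum of the genes listed for the cyclic AMP response (883.5, against 697.4 and 706.4 on the other sham arrays). Their part in the result was not tested.

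The values of Adcy5 were 88.5, 84.3 and 78.3 in F+ ventricles, 85.5, 87 and 85.2 in F- ventricles and 85.5, 87.2 and 85.5 in sham ventricles. The F+ arrays covered a wider range than all other arrays together and held both the highest and the lowest value. The log2 difference of the F+ group was -0.039 against the F- group (95% confidence interval -0.14 to 0.060) and -0.042 against the sham group (95% confidence interval -0.14 to 0.058). Both turned positive without F+ array 3, at 0.0080 and 0.0052.

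Rgs2, which encodes a regulator that acts mainly on Gq, was as variable within the groups as between them. Its values were 48.7, 52.5 and 43.7 in F+ ventricles, 48.9, 51.6 and 48 in F- ventricles and 55.1, 47.9 and 44.7 in sham ventricles. All groups overlapped. The 95% confidence interval of the log2 difference was -0.25 to 0.17 between F+ and F- and -0.23 to 0.18 between F+ and sham. The exact permutation test over the 3 groups gave p = 0.911.

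**Figure D3:**
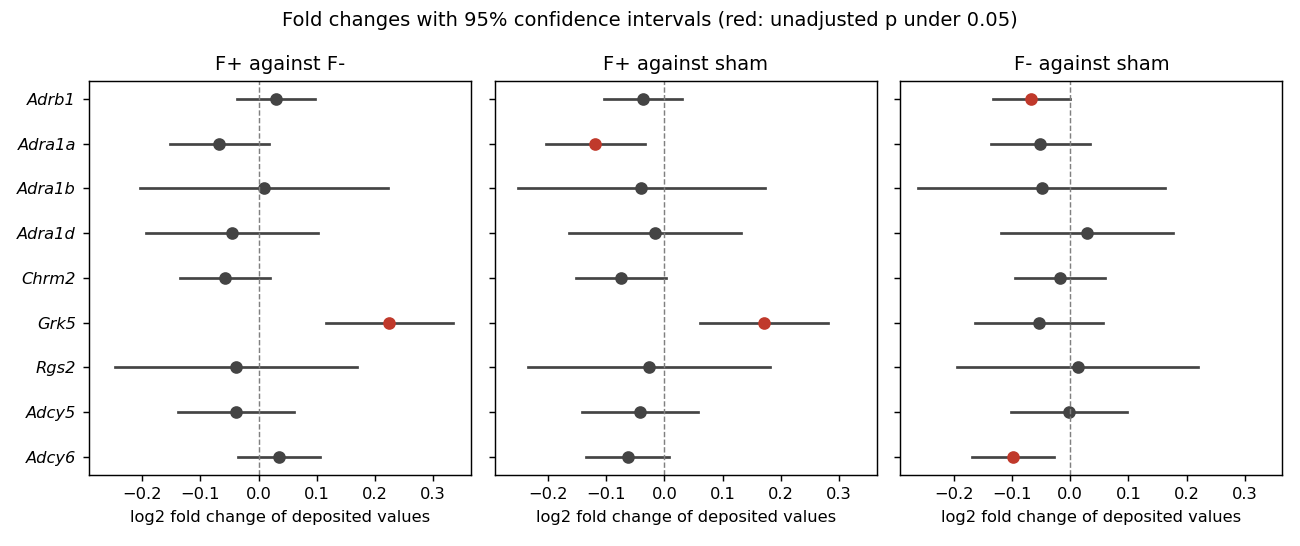
Log2 differences of deposited values (horizontal axis) of the 9 genes with the 95% confidence interval of each point as a line, for F+ against F-, F+ against sham and F- against sham. Grk5 lies to the right in both F+ comparisons (0.23 and 0.17), and Adra1b, Adra1d and Rgs2 have the widest intervals.

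Of the 9 genes none passed the adjusted threshold of 0.05 in limma in any comparison. For F+ against F-, 1 member (Grk5, higher) had an unadjusted p under 0.05, where 7.41% of all features did (3.65% higher and 3.76% lower), and 0.00342% of all features passed after adjustment. For F+ against sham, 2 members did (Grk5 higher and Adra1a lower), where 7.4% of all features did (3.5% higher and 3.9% lower) and 0% passed after adjustment. For F- against sham, 2 members did (Adrb1 and Adcy6, both lower), where 6.03% of all features did (3.07% higher and 2.96% lower) and 0% passed. With the banded groups pooled, 2 members did (Adra1a and Adcy6, both lower), where 6.29% of all features did (3.26% lower) and 0% passed. Every banded value lay below every sham value for 2 members, against 1.53% of all features. Every F+ value lay below every sham value for 3 members (Adra1a, Chrm2 and Adcy6), against 6.56% of all features, and above for 1 member (Grk5), against 5.69%. Every F- value lay below every sham value for 2 members (Adra1a and Adcy6), against 4.64% of all features. Every F+ value lay above every F- value for 1 member (Grk5), against 4.46% of all features. The median log2 difference of the members was -0.039 between F+ and F-, -0.040 between F+ and sham and -0.049 between F- and sham, while the medians over all features were -0.0023, -0.0035 and -0.0025. Of the 9 members 8 had lower values in F+ ventricles than in sham ventricles, where 52.6% of all features did, and 7 had lower values in F- ventricles than in sham ventricles, where 51.9% did. These comparisons share the sham arrays.

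The genes around these receptors were counted from lists of 131 measured genes. None passed after adjustment in any comparison. Between F+ and F- 8 were higher and 5 lower at an unadjusted p under 0.05, and between F+ and sham 8 were higher and 13 lower. Between F- and sham 1 was higher and 1 lower. These are 9.92%, 16.0% and 1.53% of the 131 genes, and the shares of all features were 7.41%, 7.4% and 6.03%. The median log2 difference over the 131 genes was 0.0045 between F+ and F- and -0.0082 between F+ and sham. Neither the 6 other receptor kinases and arrestins nor the 13 other RGS proteins held a gene with an unadjusted p under 0.05 in these comparisons. Even so, 5 of the 6 kinases and arrestins had higher means in F+ than in F- ventricles. Grk2 and Grk6 were counted among these at very small log2 differences of 1.0e-05 and 0.0041. The sums of the 6 genes were 300.9 to 308.7 in F+, 291.6 to 295.3 in F- and 295.1 to 298.8 in sham ventricles. Every F+ value of the arrestin gene Arrb2 lay above every F- value (unadjusted p = 0.0531), as for 4.46% of all features. Of the 16 genes of protein kinase A, its inhibitors and its anchors, 11 were lower in F+ than in F- ventricles, 2 of them at an unadjusted p under 0.05. Of the 9 phosphatase inhibitors and substrates of protein kinase A, 8 were lower, 1 of them at an unadjusted p under 0.05. Pln, Ryr2 and Tnni3 are also among the 10 ventricular cardiomyocyte markers, of which 8 were lower in F+ than in F- ventricles. Of all features, 51.6% were lower in this comparison.

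Both genes of the acetylcholine-gated potassium channel, which the M2 receptor opens through the beta-gamma subunits of Gi, had lower means in F+ ventricles than in either other group. Kcnj5, which encodes the subunit GIRK4, was 59.2, 58.1 and 57 in F+ ventricles, 61.8, 67.6 and 72.4 in F- ventricles and 74, 73.2 and 66.8 in sham ventricles. Every F+ array lay below all 6 other arrays, and F- array 1 was the lowest of these 6. Its log2 difference in F+ ventricles was -0.29 against the sham group (standard error 0.063, unadjusted p = 0.00166, adjusted p = 0.600) and -0.21 against the F- group (unadjusted p = 0.0108, adjusted p = 0.622), or -0.27 against the F- group without F- array 1. Kcnj3, which encodes the partner subunit GIRK1, was 98.1, 95.6 and 92.3 in F+ ventricles, 99.2, 104.4 and 102.7 in F- ventricles and 96.4, 112.8 and 102.4 in sham ventricles. The F+ arrays of Kcnj3 lay below the F- arrays but overlapped the sham arrays. Its log2 difference was -0.12 against the sham group (unadjusted p = 0.0666), and -0.060 without sham array 2, which held the highest value. Both channel genes are more abundant in atrial than in ventricular muscle. The 5 measured atrial markers had sums of 347.6 to 378.2 in F+ ventricles, 281.6 to 353.2 in F- ventricles and 299.7 to 570.5 in sham ventricles. Among them Myl7, the atrial myosin light chain, was 76.9, 97.3 and 70.5 in F+ ventricles, 63, 105.7 and 110.4 in F- ventricles and 88.5, 149.9 and 92.2 in sham ventricles. Of the F- arrays, array 1 was the lowest for Kcnj5, Myl7, Bmp10 (15.5) and Dkk3 (75.2). It was the highest F- array for Nppa (155.6, against 37 and 43.6) and Sln (43.9). Between F+ and F- ventricles 3 of the atrial markers had higher means in F+ and 2 lower. Between F+ and sham ventricles 1 of them had a higher mean in F+ and 4 lower. The part of atrial tissue in the difference of Kcnj5 was not tested.

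Of 4 other muscarinic receptor genes, Chrm3 was the 1 with an unadjusted p under 0.05. Chrm3 encodes the M3 receptor and was 29.2 to 31.6 in F+ ventricles, 29.1 to 31.9 in F- ventricles and 31.6 to 32.9 in sham ventricles, a log2 difference of -0.11 between F+ and sham (unadjusted p = 0.0398, adjusted p = 0.662). None of 4 other adrenergic receptor genes had an unadjusted p under 0.05 in limma in any comparison. The lowest p among them was that of Adra2c between F+ and F-, with a log2 difference of 0.10 (unadjusted p = 0.0716), or 0.058 without F- array 1.

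Among 19 G protein subunits, 15 had higher means in F+ than in F- ventricles, where 51.6% of all features had lower means, and the 3 with an unadjusted p under 0.05 were all higher. Gnai2, which encodes a Gi subunit, was 123.6 to 124.4 in F+ ventricles, 115.1 to 120.5 in F- ventricles and 115.5 to 118.2 in sham ventricles. Every F+ array lay above the other 6, at a log2 difference of 0.080 against both the F- group (adjusted p = 0.635) and the sham group (adjusted p = 0.616). Gna12 behaved alike, with 115.2 to 120 in F+ ventricles, 107.4 to 113.6 in F- ventricles and 108.8 to 113.3 in sham ventricles. Gng7 had a log2 difference of 0.19 against the F- group (unadjusted p = 0.0318), or 0.11 without F+ array 1 (unadjusted p = 0.0783), and with the replicate number as a block its unadjusted p was 0.0523. Gnao1, which encodes Go, was 90.6 to 99.8 in F+ ventricles and 69.6 to 84.9 in sham ventricles, a log2 difference of 0.32 (unadjusted p = 0.0142, adjusted p = 0.616), and was also high on F- array 1 (96.2). For Gnai2, Gna12 and Gnao1 the highest F- value lay on F- array 1, as did that of the macrophage markers, whose sums were 560.4 to 594.4 in F+ ventricles and 446.2 to 559.4 in F- ventricles. That array also held the highest F- sums of the fibroblast (704.4), smooth muscle and pericyte (532.5) and atrial markers (353.2). It did not hold those of the other cell types listed. The part of macrophages or of any other cell type in the differences of these G protein genes was not tested.

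Of 6 other adenylyl cyclase genes, Adcy1 was lower and Adcy4 higher in F+ ventricles than in F- ventricles at an unadjusted p under 0.05. Adcy1 was 42.8 to 46.6 in F+ ventricles, 45.2 to 55.8 in F- ventricles and 50.6 to 57.4 in sham ventricles, a log2 difference of -0.28 between F+ and sham (adjusted p = 0.616). Between F+ and F- it was -0.21, or -0.30 without F- array 1. Adcy4 had a log2 difference of 0.083 between F+ and F- (adjusted p = 0.650), and Adcy2 of 0.075 between F+ and sham (adjusted p = 0.655).

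Genes of cyclic AMP breakdown and of protein kinase A differed in both directions. Pde8a, which encodes a phosphodiesterase specific for cyclic AMP, was 59.1 to 59.4 in F+ ventricles, 52.6 to 55.6 in F- ventricles and 52.4 to 55.7 in sham ventricles. Its log2 difference was 0.13 between F+ and F- (unadjusted p = 0.00563, adjusted p = 0.594). In contrast, Pde3a, which encodes a main phosphodiesterase of cardiac muscle, was lower on every banded array, with 85.6 to 89.9 in F+ ventricles, 85.2 to 91.8 in F- ventricles and 94.1 to 94.8 in sham ventricles. Its log2 difference in F+ ventricles against the sham group was -0.11 (adjusted p = 0.620), and those of Pde4b and Pde1c were -0.11 and -0.20 (adjusted p = 0.633 for both), the last being -0.13 without sham array 1 (unadjusted p = 0.0572). Akap9, which encodes an anchoring protein of protein kinase A, was 56.8 to 57.4 in F+ ventricles, below all F- arrays (58.6 to 62.2) and sham arrays (61.1 to 64.5), at a log2 difference of -0.13 against the sham group (unadjusted p = 0.00408). Ppp1r1a, which encodes an inhibitor of protein phosphatase 1 that protein kinase A activates, was 40.3 to 41.3 in F+ ventricles, 41.5 to 49.9 in F- ventricles and 46 to 49.7 in sham ventricles. The log2 difference of Ppp1r1a in F+ ventricles was -0.23 against the sham group (unadjusted p = 0.00865, adjusted p = 0.616). Cacna1c, which encodes the pore of the L-type calcium channel, had a log2 difference of -0.087 (adjusted p = 0.652), and Itpr2, which encodes an inositol trisphosphate receptor downstream of Gq, of -0.11 (adjusted p = 0.620). Ventricular cardiomyocyte markers had sums of 1465 to 1486 in F+ and 1461 to 1491 in sham ventricles, and their part in these differences was not tested.

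Of 12 measured genes listed for the cyclic AMP response, 5 had higher means in F+ than in F- ventricles, 2 in F+ than in sham ventricles and 3 in F- than in sham ventricles. Crtc2, which encodes a coactivator of the factor CREB, was the 1 with an unadjusted p under 0.05, with a log2 difference of 0.082 between F+ and F- (adjusted p = 0.668) and -0.098 between F- and sham (unadjusted p = 0.0148, adjusted p = 0.743). The immediate early genes of the list were highest on sham array 1. Creb1 (45.5 on that array), Atf1 (77.8), Crtc1 (62.7) and Crtc2 (56.8), which encode transcription factors and coactivators, were not. Nr4a1, which encodes an orphan nuclear receptor, was 49.9 to 57.2 in F+ ventricles, 48.2 to 59.6 in F- ventricles and 92.6, 47.8 and 51.4 in sham ventricles. Fos, which encodes a subunit of the factor AP-1, was 48.1 to 66.5 in F+ ventricles, 47.9 to 70.7 in F- ventricles and 88.9, 52 and 56.3 in sham ventricles. For both genes the other sham arrays lay within the range of the banded arrays or just below it.

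**Figure D4:**
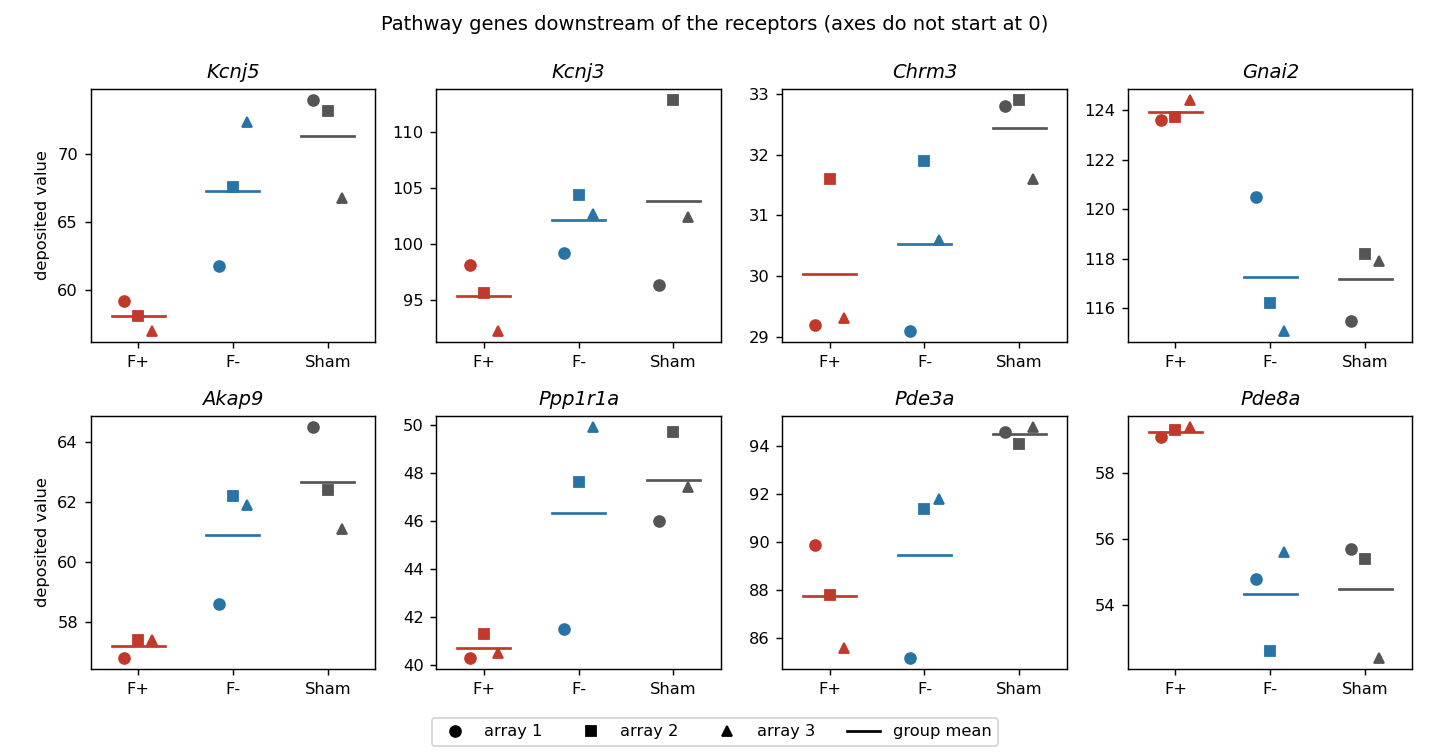
Deposited values (vertical axes, not from 0) of Kcnj5, Kcnj3, Chrm3, Gnai2, Akap9, Ppp1r1a, Pde3a and Pde8a on each array of the F+, F- and sham groups, where a circle marks array 1, a square array 2, a triangle array 3 and a line the group mean. The F+ arrays lie apart from all others for Kcnj5, Gnai2, Akap9, Ppp1r1a and Pde8a, and F- array 1 is the F- array nearest to them for all of these but Pde8a.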

How the data were processed

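RNA of rat right ventricles was hybridized to Affymetrix Rat Gene 1.0 ST arrays, 3 per group. The authors deposited 1 signal intensity per feature and array, for 29215 features on 9 arrays, and all columns were used. The normalization, the scale and the software were not given in the sources used here. Per the methods, hybridization was in triplicate with averaging of the intensities, and what each replicate held was not stated. In the platform annotation, which named the features, 15310 had a single symbol, 323 had several and 13582 had no entry.

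On log2 intensities, a linear model with a mean for each group was fitted by limma 3.58.1 in R 4.3.3, using lmFit and eBayes on the 9 arrays jointly. The contrasts were F+ against F-, F+ against sham, F- against sham, and both banded groups against sham, with Benjamini-Hochberg adjustment across features. Exact permutation tests were added for single members, and the settings varied are given with their effects among the closing observations. The procedure was tested on simulated data. Motif searches and plots used Python 3.11.15 and matplotlib 3.10.9.

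The members and lists were chosen with earlier results of these data known. From each list, genes were named among the 4 with the smallest p in any comparison. Grk2, Th, Nr4a1, Fos and Myl7 were named after their values were seen. Precision is limited by the number of arrays. Samples with the same replicate number were not taken as pairs.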

Additional observations from a re-analysis of the deposited data

How the results depend on the processing

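No member passed the adjusted threshold in limma under any setting run, with 0 called in every comparison. Of 66 log2 differences of members and list genes, 57 kept their direction under every setting. Several settings could not turn a direction. Fewer features, the replicate block, just the groups compared and the trend leave the differences between group means as they are. The average over features cannot change a member, as each had 1 feature. Every change of direction came with arrays left out. The settings changed the transformation (square roots or none), the normalization (quantile or median), the features (without the dimmest 33.3%, or with 1 symbol only), the model (replicate number as a block, just the groups compared, or a trend with robust priors), the summary (arithmetic means, or the average over the features of a gene) and the arrays (each left out in turn). With 1 array left out, the log2 difference between F+ and F- lay between -0.080 and 0.0080 for Adcy5, -0.068 and 0.055 for Adra1b, -0.098 and 0.010 for Adra1d, and -0.10 and 0.031 for Rgs2. Between F+ and sham it lay between -0.083 and 0.0052 for Adcy5, -0.083 and 0.048 for Adra1b, -0.064 and 0.024 for Adra1d, and -0.093 and 0.058 for Rgs2. For Chrm2 between F- and sham it lay between -0.032 and 0.0067. Without both sham array 2 and F- array 1, a setting chosen after seeing the data, Adra1b turned to -0.068 between F+ and F- and Chrm2 to 0.025 between F- and sham. In these settings fewer arrays were fitted, and the cause was not tested further.

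Over all features, 1 was called between F+ and F-. The number was 3 without a transformation, without the dimmest features, with 1 symbol only, with the trend and without both arrays, 0 with only the groups compared, and 0 to 3 with each array left out. Between F+ and sham 0 became 1 with only the groups compared and without both arrays. Among the 3 groups 0 became 1 with square roots, without a transformation, without the dimmest features and with the trend, and 2 without both arrays. With the replicate block the number of features called between F+ and F- was 0. Deviations of arrays with the same number correlated between -0.205 and 0.0532, and not every array correlated best with its own number, so the numbers were not taken as pairs. The members with an unadjusted p under 0.05 numbered 1 to 2 between F+ and F-, 2 to 4 between F+ and sham 1 to 3 between F- and sham, and 1 to 3 between the banded groups and sham (1 with the replicate block) over the settings other than single arrays left out. With each array left out in turn they numbered 1 to 2, 2 to 3, 1 to 3 and 0 to 3 in these comparisons.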

Other observations

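Genes of the synthesis, transport and breakdown of catecholamines and acetylcholine were also measured. Th, which encodes the first enzyme of catecholamine synthesis, was 22.4 to 25.4 in the F+ group, 23.4 to 24.2 in the F- group and 23 to 25.6 in the sham group. Slc18a1, which encodes a vesicular monoamine transporter of chromaffin cells, was 27.6 to 29.2 in the F+ group, 20.1 to 25 in the F- group and 22.8 to 25 in the sham group, a log2 difference of 0.29 between F+ and F- (adjusted p = 0.612), or 0.19 without F- array 3, the lowest array. Slc5a7, which encodes the choline transporter of cholinergic nerves, was 17.6 to 18.2 in the F+ group, 17.3 to 17.5 in the F- group and 16.2 to 16.5 in the sham group. Its log2 difference was 0.14 in the F+ group (unadjusted p = 0.000404, adjusted p = 0.564) and 0.097 in the F- group (unadjusted p = 0.00375) against the sham group. Of all features, 18.2% had a lower mean than Slc5a7 and 34.3% a lower mean than Slc18a1. Bche, which encodes butyrylcholinesterase, was lower on every F+ array (77.2 to 80.4) than on any sham array (82.4 to 87.5), with F- arrays between 79.5 and 86.2 (adjusted p = 0.633 for the F+ group against the sham group).

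Among 7655 features with 1 symbol and a mean above the median, those most like Adrb1 over the 9 arrays were Pex26 (Pearson r = 0.916), Robo4 (0.913) and Hspa12b (0.903). Those most like Adra1b were Meis2 (0.934), Gamt (0.911) and Cask (0.905), and those most like Chrm2 were Rps6ka5 (0.970), Ift81 (0.963) and Rtn1 (0.944). These values were picked as the highest and are a description only.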
